A study of Zea mays with 24 samples.

Results

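Heated cytTC221 was compared with heated TC243, the cytoline in its new cytoplasm against the line that donated its nucleus, in the state both had reached after 24 h at 40 °C. The comparison takes 8 of the 24 arrays of the series, the 4 heated cytTC221 and the 4 heated TC243 samples. These samples were taken by the line and treatment in their labels, but earlier results of these data were known when the comparison was chosen. The comparison covers all 48264 gene IDs of the array that could be tested, each called a gene below. Of these IDs 34031 had no RefSeq match, so the counts are of array IDs. Heated cytTC221 seedlings hold the TC243 nucleus in TC221 cytoplasm, and heated TC243 seedlings hold the same nucleus in the cytoplasm it came with. TC243 is an Iowa Stiff Stalk inbred, TC221 is a European Flint, and cytTC221 was made by repeated backcrossing with TC243 as the pollen donor, so that its nucleus is TC243 as far as backcrossing carries it. All 8 samples had 20 days of growth before the day at 40 °C, with a light period of 16 h kept at 26 °C and a dark period of 8 h kept at 20 °C. Unstressed cytTC221 and unstressed TC243, with 4 arrays each, were harvested after 21 days without the heat and are used to say whether a heated difference was there before. Heated cytTC248, the third line, with the same nucleus in the cytoplasm of a Lancaster line and 4 arrays, is set beside named genes. Leaves and stems of 3 seedlings per line were harvested and each group has 4 replicates, but how the replicates divide the seedlings is not stated, so the p-values measure the spread between these samples, part of which may be technical.

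Maize inherits mitochondria and chloroplasts through the egg, so a cytoline carries the organelles of the line that gave its cytoplasm. Most organelle proteins are nevertheless encoded in the nucleus, made in the cytosol and imported, and nuclear genes respond to signals from the organelles. Heat unfolds proteins, and plants answer it through heat shock factors, which switch on genes of chaperones (heat shock proteins), while photosynthesis is among the processes most sensitive to it.

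Each value below is a log2 signal relative to the 75th percentile of its array, so that 0 is a bright gene, -4.5 is close to background, and a difference of 1 is a doubling of the signal. A difference is always heated cytTC221 minus heated TC243 unless another pair is named. A gene was called higher or lower where the adjusted p of limma, fitted over all genes and all 24 arrays, was below 0.01. Signals of dim genes are compressed by the background correction, so their differences understate the change. The share of spots standing well above background was 36.9% to 43.1% on the heated cytTC221 arrays and 39.3% to 42.5% on the heated TC243 arrays, a difference of -1.38 percentage points (two-sided exact permutation test, p = 0.429, where the smallest possible p is 0.0286). Replicate arrays correlated at 0.988 to 0.995 within either group. Each line had arrays at the same 2 positions of a slide, and 2 slides held an array of each.

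Heated cytTC221 differed from heated TC243 at a large part of the genes, and lower genes were in the majority. Of the 48264 genes tested, 20596 (42.7%) were called, 7079 (14.7%) higher and 13517 (28%) lower in heated cytTC221. The median difference of all genes was -0.11. Differences over 1 on the log2 scale were found for 4400 genes (9.12%), 1014 (2.1%) higher and 3386 (7.02%) lower. This count depended on how the signal was made, with 11086 such genes in the scanner's processed signal, 7395 with a background offset of 10 in place of 50, and 2229 among probes well above background on all 24 arrays. The 4 arrays of one line lay wholly above the 4 of the other for 21530 genes (44.6%), and for 98.9% of the genes lower by over 1 and 94.6% of the genes higher by over 1. Of the genes called lower, 1899 were well above background on heated TC243 arrays alone, and of those called higher 253 on heated cytTC221 arrays alone, so that one side of their difference was not measured above background. Other scalings of the arrays moved the median of all genes by -0.01 to 0.21 and with it the share of higher genes among those called, which was 34.4% in the main scaling, 46.2% with quantile normalization, 51.2% with the percentile taken over all spots, 52.4% in the deposited series matrix and 60.5% with each array centred on its median gene. Lower genes stayed the majority among differences over 1 in all of these, with higher genes at 23% in the main scaling and at 45% with the median centring. On the 2 slides that held both lines, 1 array against 1, 20455 and 20430 of the 20596 called genes had the sign of the pooled difference, while the median of all genes was -0.002 and -0.02. These arrays are among those that made the calls, so the shared sign follows in large part from the calling. On both slides cytTC221 was at position 4 and TC243 at position 2, so line and position cannot be told apart there.

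Lower genes were more frequent among dim genes and among genes outside RefSeq. The median difference was -0.20 in the dimmest of 5 equal brightness classes, where 34.3% of the genes were lower and 3.02% higher. It was 0.015 in the brightest class, where 24.7% of the genes were higher and 21.1% lower. A dim gene could enter the test through a single group that detected it, so the dim classes are partly selected by signal. With only probes detected on all 24 arrays, 46.1% of called genes were higher (34.4% in the main setting) and the median was -0.041. With no filter on dim probes, 31% were higher and the median was -0.117. What this selection adds to the difference between classes was not tested. Of the 3386 genes lower by over 1, 92.5% had no RefSeq match, against 70.5% of all tested genes and 70% of the genes higher by over 1. Of the 14233 genes with a RefSeq match, 3345 (23.5%) were higher and 2507 (17.6%) lower, with a median of 0.014, and of the 34031 without a match 3734 (11%) were higher and 11010 (32.4%) lower, with a median of -0.17. The array carries probes of 2 name series, and genes with Xhy-named probes alone made up 88.5% of those lower by over 1, against 67.7% of all tested genes. With the Sp-named probes alone, 3247 of 15579 genes were higher and 2815 lower, so the majority of lower genes was not found with these probes. What the 2 name series are is not stated in the sources used here, and the part of the probe series in the result was not tested.

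The genes lower by over 1 lay far above their unstressed level in heated TC243 and only a little above it in heated cytTC221. Because the heated arrays chose them, their levels are given as a description. The median level of the 3133 unmatched genes lower by over 1 was -3.69 in heated cytTC221 and -2.12 in heated TC243, and without heat it was -4.14 in cytTC221 and -4.09 in TC243. The 253 matched ones had medians of -2.48 in heated cytTC221 and -0.84 in heated TC243, against -2.81 in unstressed cytTC221 and -2.50 in unstressed TC243. For 2088 of the 3386 genes, the TC243 mean with heat was over 1 above that without, and the rise in cytTC221 was under 50% of it. In heated cytTC248 the medians lay between those of the other lines, at -2.59 for the unmatched and -1.3 for the matched genes.

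The genes higher by over 1 fell into 2 kinds. The 304 matched ones had a median of -0.86 in heated cytTC221 and -2.17 in heated TC243, but -0.92 in unstressed cytTC221 and -1.08 in unstressed TC243, so that heated cytTC221 was near the unstressed level and heated TC243 below it. The 710 unmatched ones had medians of -0.35 in heated cytTC221 and -1.79 in heated TC243, against -2.99 in unstressed cytTC221 and -3.33 in unstressed TC243, and thus lay higher after heat in both lines. Heated cytTC248 was at -1.81 for the matched and -0.98 for the unmatched genes.

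**Figure D1:**
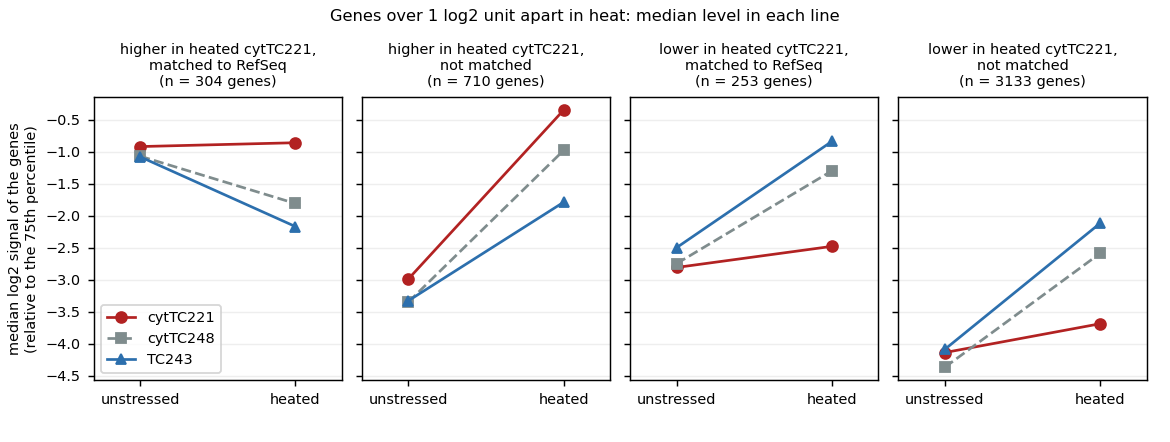
Median log2 signal, with the 75th percentile of the array as 0, of the genes called and over 1 apart between heated cytTC221 and heated TC243, in 4 panels by direction and by RefSeq match, for the unstressed and the heated groups of each line (4 arrays each). In the panel of 3133 lower genes without a RefSeq match, cytTC221 is at -4.14 unstressed and -3.69 heated, and TC243 at -4.09 unstressed and -2.12 heated, the heated gap being what chose the genes.

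Without heat the lines differed at far fewer genes. Of the 48264 genes, 4916 (10.2%) were called between unstressed cytTC221 and unstressed TC243, 2545 (5.27%) higher and 2371 (4.91%) lower, and 873 (1.81%) by over 1, 572 (1.19%) higher and 301 (0.624%) lower. The line difference in heat was itself different from the line difference without heat at 14403 genes (29.8%), in the upward direction at 4976 (10.3%) and in the downward at 9427 (19.5%). This majority depended on the scaling, with 8282 upward and 9986 downward under quantile normalization and 8814 upward and 7679 downward with the percentile over all spots. The other scalings were not run for this change. In the main scaling it was over 1 at 4742 genes (9.83%), upward at 1054 (2.18%) and downward at 3688 (7.64%). Of the 3386 genes lower by over 1 in heat, this test of the change was passed by 3218, and of the 1014 higher by over 1 by 850. The heated difference that chose these genes is part of the change, so these counts follow largely from the choice. Called in both states were 2779 genes, of which 1823 had the same direction and 956 the opposite, and 86 genes were higher and 88 lower by over 1 in both.

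Among the named genes with the highest differences, the first was GNAT21 (GRMZM2G131618), an acetyltransferase of the GNAT family. Its signals were -1.17, -0.96, -0.90 and -1.14 in heated cytTC221, against -3.90, -3.52, -3.46 and -3.54 in heated TC243. Every cytTC221 array was above every TC243 array, as the choice of these genes required. The difference of 2.57 ± 0.10 (SE, adjusted p = 2.7e-15) stood beside 0.07 without heat (adjusted p = 0.75). In heated cytTC248 the mean was -3.42, close to TC243.

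PPCK4 (GRMZM2G049541), a kinase of phosphoenolpyruvate carboxylase, the enzyme that first fixes carbon in C4 leaves, had 0.09, 0.21, 0.30 and 0.06 in heated cytTC221, against -1.44, -1.38, -1.3 and -1.35 in heated TC243. The difference of 1.53 ± 0.10 (adjusted p = 1.2e-11) ran against that without heat, where the mean was -1.22 in cytTC221 and -0.22 in TC243. The change of the difference, 2.54 (adjusted p = 3.8e-12), was the largest among the 12 named genes that were higher.

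A pair of hormone genes followed. D14a (GRMZM2G077127), named after the strigolactone receptor, had 2.41, 2.47, 2.56 and 2.34 in heated cytTC221, against 1.11, 0.87, 1.00 and 1.05 in heated TC243, a difference of 1.44 ± 0.07 (adjusted p = 5.0e-14). ACO20 (GRMZM2G126732), of the ACC oxidases that make ethylene, had 0.07, -0.59, -0.51 and -0.38 in heated cytTC221, against -1.36, -2.64, -1.46 and -1.73 in heated TC243. Its arrays spread more than those of the genes above, with groups that did not overlap, as the choice of genes required (1.45 ± 0.21, adjusted p = 4.2e-06).

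HMGR (GRMZM2G393337), of the mevalonate pathway to sterols, had 0.73, 1.25, 1.3 and 0.78 in heated cytTC221, against -0.27, -0.46, -0.52 and -0.44 in heated TC243. glu2 (GRMZM2G008247), a beta-glucosidase, had -1.76, -1.84, -1.85 and -1.77 in heated cytTC221, against -3.44, -3.16, -3.08 and -3.25 in heated TC243. Both lines had far more glu2 signal without heat, 3.28 in cytTC221 and 3.19 in TC243, and the line difference in heat was 1.43 ± 0.10 (adjusted p = 4.2e-11). PSA2 (GRMZM2G021687), which serves the assembly of photosystem I, was of this kind too, at -0.86, -0.77, -0.71 and -0.90 in heated cytTC221 and -2.58, -2.05, -2.24 and -1.87 in heated TC243, against 0.56 in unstressed cytTC221 and 0.54 in unstressed TC243.

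DML3 (GRMZM5G828460), named for the DEMETER-like DNA demethylases of Arabidopsis, had 1.67, 1.67, 1.57 and 1.61 in heated cytTC221, against -0.25, 0.38, 0.57 and -0.16 in heated TC243 (1.49 ± 0.12, adjusted p = 5.9e-10). It was at -1.69 in unstressed cytTC221 and -1.54 in unstressed TC243, below all 8 heated arrays. The other 4 of the 12 were MTD1 (GRMZM2G090865), at 1.44 ± 0.06, and the transcription factors HB128 (GRMZM2G041462), a homeobox protein at 1.32 ± 0.12, bZIP84 (GRMZM2G361611) at 1.24 ± 0.13 and WRKY29 (GRMZM2G040298) at 1.23 ± 0.08. The differences of all 12 changed between the states (adjusted p between 3.8e-12 and 5.0e-05 for the change), but the heated difference that chose these genes is part of that change.

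The named gene with the lowest difference was PIP2-4 (GRMZM2G154628), an aquaporin of the plasma membrane, through which water enters cells. It had -3.90, -3.68, -3.56 and -4 in heated cytTC221, against -0.31, -0.10, -0.12 and -0.06 in heated TC243, a difference of -3.64 ± 0.10 (adjusted p = 3.9e-18), or 12.4-fold lower. It was lower without heat as well, by -2.60, at -2.03 in cytTC221 and 0.57 in TC243, and in heated cytTC248 it was at -3.64, as low as in cytTC221.

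mir2 (GRMZM2G150256), a cysteine proteinase related to the one that maize makes against caterpillars, had 0.81, 0.04, 1.08 and 0.86 in heated cytTC221, against 3.83, 3.81, 3.70 and 3.95 in heated TC243 (-3.13 ± 0.14, adjusted p = 2.2e-14). It lay higher after heat in both lines, with -2.53 in unstressed cytTC221 and -1.60 in unstressed TC243, and heated cytTC248 was at 3.81, the level of TC243. geb1 (GRMZM2G065585), a glucanase also listed as pr6, had -3.80, -3.25, -3.39 and -3.80 in heated cytTC221, against -1.02, -0.99, -1.19 and -1.05 in heated TC243 (-2.50 ± 0.11, adjusted p = 1.8e-14), and heated cytTC248 was -0.23 from TC243 (adjusted p = 0.13).

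ysl11 (GRMZM5G812538), of the yellow stripe-like family that carries metals bound to nicotianamine, had -3.58, -3.34, -3.32 and -3.61 in heated cytTC221, against -0.73, -0.99, -0.72 and -0.62 in heated TC243 (-2.70 ± 0.10, adjusted p = 4.0e-16). Without heat both lines were near background, at -4.67 in cytTC221 and -4.52 in TC243. TIFY28 (GRMZM2G036351), of the family that holds the jasmonate repressors, had -1.44, -1.57, -1.65 and -1.55 in heated cytTC221, against 0.21, 0.73, 0.64 and 0.53 in heated TC243. opr2 (GRMZM2G000236), of the oxophytodienoate reductases, had -1.37, -1.36, -1.3 and -1.26 in heated cytTC221, against 0.38, 0.44, 0.35 and 0.14 in heated TC243. TIFY28 and opr2 were near background in both unstressed lines, between -4.58 and -4.32. Their differences in heat were -2.08 ± 0.09 and -1.65 ± 0.10, and neither was called without heat.

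rca3 (GRMZM2G162282), a rubisco activase, had -0.66, -1.28, -1.28 and -0.88 in heated cytTC221, against 0.36, 0.88, 0.76 and 0.26 in heated TC243 (-1.59 ± 0.16, adjusted p = 9.4e-09). dhar4 (GRMZM5G826194), a dehydroascorbate reductase, which recycles the antioxidant ascorbate, had -2.81, -2.85, -2.60 and -2.78 in heated cytTC221, against -1.02, -1.05, -1.03 and -0.74 in heated TC243 (-1.80 ± 0.08, adjusted p = 1.8e-14). PP2C13 (GRMZM2G159811), a protein phosphatase of the PP2C class, was at -2.12 ± 0.13, the aquaporin PIP1-5 (GRMZM2G081843) at -1.82 ± 0.08, MGL3 (GRMZM2G096475) at -1.90 ± 0.09 and aprl2 (GRMZM2G087254) at -1.54 ± 0.10. For each of the 12 the groups did not overlap, which was a condition for choosing them. The difference of each changed between the states, with an adjusted p for the change of at most 0.0027. The heated difference that chose these genes is part of that change.

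**Figure D2:**
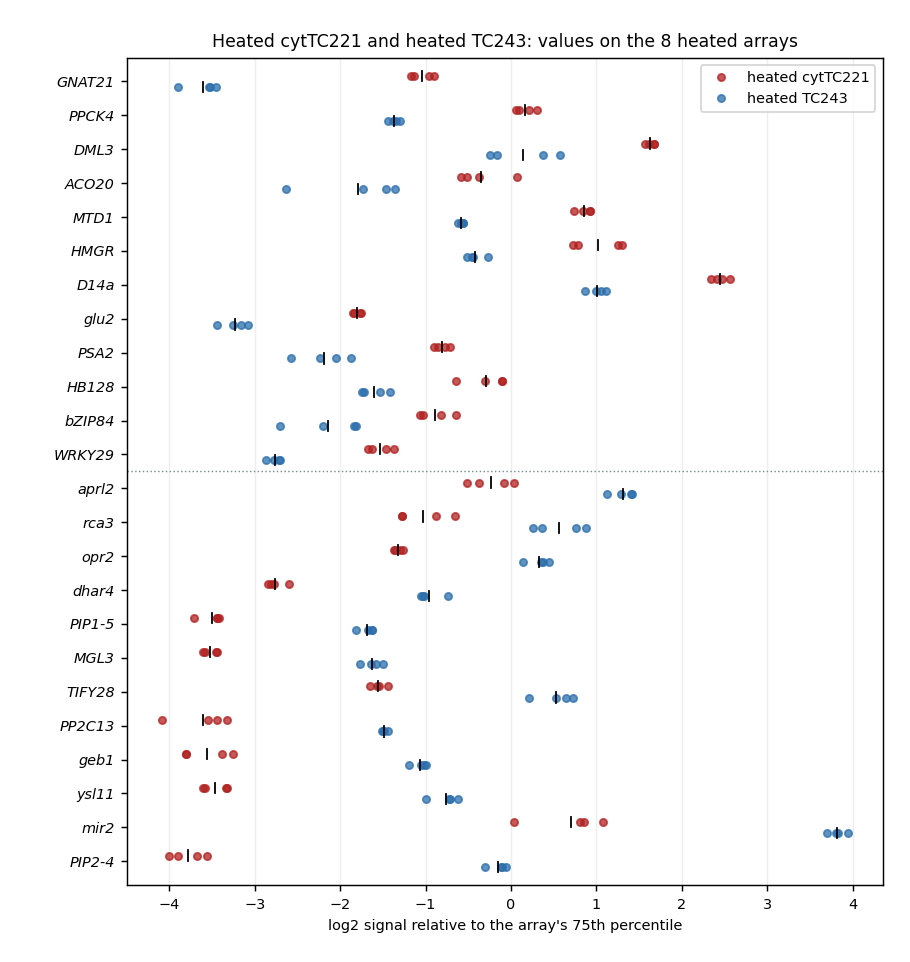
Log2 signal relative to the 75th percentile of the array, for the 12 named genes with the highest and the 12 with the lowest difference (below the dotted line), on the 4 heated cytTC221 arrays (red, upper row of each gene) and the 4 heated TC243 arrays (blue, lower row), with a tick at each group mean. No gene has overlapping groups, which was part of how the genes were chosen, and ACO20 has the widest spread within TC243, at -2.64 to -1.36.

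Genes without a RefSeq entry, drawn from 34031 against 1870 with a name, reached larger differences than the named ones. RefSeq genes without a name reached further than the unmatched ones shown here, with GRMZM2G170008 at -5.21 and GRMZM2G131591 at 2.94. GRMZM2G549927 had -3.17, -3.46, -3.28 and -3.21 in heated cytTC221, against 1.11, 1.25, 1.17 and 1.17 in heated TC243, a difference of -4.46 ± 0.09 (adjusted p = 6.2e-20), and GRMZM2G700353 was at -4.06 ± 0.09 (adjusted p = 2.7e-19). GRMZM2G044908 had 1.04, 0.93, 1.13 and 0.92 in heated cytTC221, against -1.62, -1.93, -1.78 and -1.79 in heated TC243, a difference of 2.79 ± 0.07 (adjusted p = 6.0e-19). GRMZM2G526578 had 0.60, 1.37, 3.18 and 1.45 in heated cytTC221, against -0.43, 0.39, -2.39 and -1.94 in heated TC243, so its 2.75 ± 0.46 (adjusted p = 2.4e-05) came with a wide spread in both groups.

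Gene lists by function are described by their counts, to be read against the 14.7% higher and 28% lower of all genes. The lists were chosen with earlier results of these data known, so their counts are a description. All list members carry a gene name, and of the 1870 named genes tested 376 were higher and 392 lower, with a median of -0.03, so the named genes as a whole leaned less to the lower side.

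**Figure D3:**
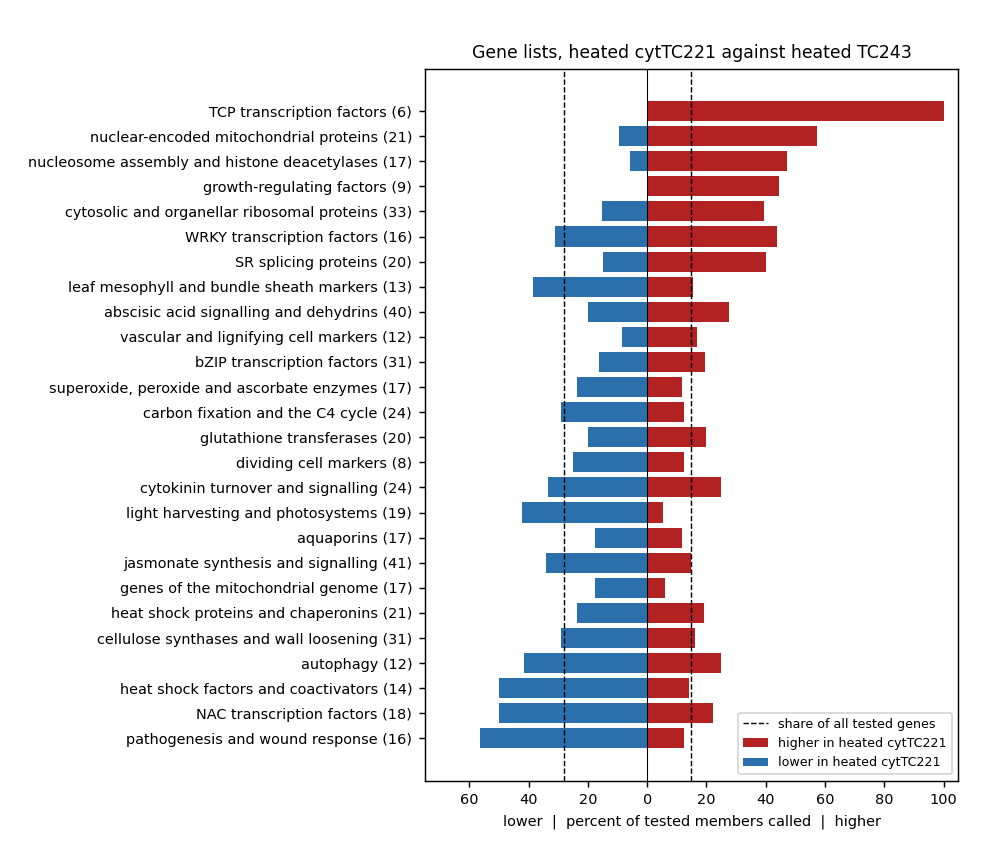
Percent of the tested members of each gene list (number tested in brackets) that were called higher (red, to the right) or lower (blue, to the left) in heated cytTC221 than in heated TC243, ordered by the median difference of the list. The dashed lines mark 14.7% and 28%, the shares of all 48264 tested genes. Lists with fewer than 6 tested members are not shown. The 6 TCP genes are all higher, and of the lists shown pathogenesis and wound response has the lowest median, -0.43.

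Heat shock proteins were at high levels in both lines. Of the 21 tested 12 were not called, near the share of all tested genes, of which 42.7% were called. Of 21 heat shock proteins and chaperonins 4 were higher and 5 lower (4 to 5 and 3 to 7 in all scalings), with a median of -0.18, and the summed signal of the list, on the log2 scale, lay between 7.14 and 7.24 on the heated cytTC221 arrays and between 7.11 and 7.49 on the heated TC243 arrays. hsp22 (GRMZM2G007729), a small heat shock protein, had 5.43, 5.46, 5.47 and 5.30 in heated cytTC221, against 4.75, 5.67, 5.56 and 5.71 in heated TC243 (-0.009 ± 0.147, adjusted p = 0.97), and hsp18 (GRMZM2G149647) was at -0.42 ± 0.16 without being called (adjusted p = 0.035). The disaggregase hsp101 (GRMZM2G360681), which pulls proteins out of aggregates, had 2.32, 2.15, 2.45 and 2.32 in heated cytTC221, against 3.09, 2.84, 2.90 and 2.76 in heated TC243 (-0.59 ± 0.09, adjusted p = 1.2e-05). Lower too were hsp18f (GRMZM2G083810) at -0.94 ± 0.09 and hsp1 (GRMZM5G802801), an hsp70, at -0.61 ± 0.07. Higher were HSP90-1 (GRMZM2G024668), at 0.42 ± 0.08 (adjusted p = 0.00013), and the chloroplast co-chaperonin CHL-CPN10 (GRMZM2G103236), at 0.40 ± 0.07 (adjusted p = 4.8e-05). hsp70-4 (GRMZM2G340251), at 0.40 ± 0.13 (adjusted p = 0.0094), lost its call when any 1 of the 8 heated arrays was left out, with an adjusted p of up to 0.030.

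Heat shock factors regulate these genes. Of 14 factors and coactivators 2 were higher and 7 lower, with a median of -0.36, and the count of lower ones was 6 to 8 in all scalings. Hsf26 (GRMZM2G003489) had -3.40, -3.42, -3.17 and -3.61 in heated cytTC221, against -2.16, -2.09, -1.92 and -1.99 in heated TC243 (-1.36 ± 0.10, adjusted p = 1.4e-10), and both lines were near background without heat, at -4.70 in cytTC221 and -4.69 in TC243. hsfb (GRMZM2G118453) went the other way, with -0.22, -0.20, -0.15 and -0.35 in heated cytTC221, against -0.85, -1.14, -1.02 and -0.81 in heated TC243 (0.73 ± 0.08, adjusted p = 8.2e-08), and Hsf12 (GRMZM2G384339) was 0.36 ± 0.09 higher with all probes and at -0.04 with its 1 Sp-named probe.

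Of 19 light harvesting and photosystem genes of the photosynthetic membrane 8 were lower (6 to 8 in all scalings), 1 was higher, PSA2 (1 to 4 in all scalings), and 10 were not called. Their median was -0.12, against -0.11 for all genes and -0.03 for the 1870 named genes, of which 376 were higher and 392 lower. Without heat the median of the 19 genes was -0.20, with 3 lower and none higher. CP24 (GRMZM2G092427), an antenna protein of photosystem II, had -1.35, -1.03, -1.05 and -1.28 in heated cytTC221, against -0.12, -0.07, -0.05 and -0.24 in heated TC243 (-1.06 ± 0.10, adjusted p = 5.3e-09). It was at 6.47 in unstressed cytTC221 and 6.77 in unstressed TC243, far above all heated arrays. The antenna gene cab-m1 (GRMZM2G351977) was at -1.05 ± 0.09 and the ferredoxin-NADP reductase L-FNRII (GRMZM2G059083), which makes NADPH, at -0.84 ± 0.07. PGR5 (GRMZM2G017045), of cyclic electron flow, was bright in both, at 1.25 to 1.46 in heated cytTC221 and 1.23 to 1.41 in heated TC243, with a difference of 0.02 ± 0.07 (adjusted p = 0.84). Antenna genes and rbcS belong to families of near-identical copies whose probes may share signal.

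Of 24 genes of carbon fixation and the C4 cycle 3 were higher and 7 lower, with a median of -0.07, and without heat 2 were higher and 6 lower, with a median of -0.28. Among them the rubisco activase RA (GRMZM2G162200) had -0.44, -0.65, -0.48 and -0.55 in heated cytTC221, against 0.45, 0.72, 0.18 and 0.63 in heated TC243 (-1.02 ± 0.11, adjusted p = 2.6e-08), in the direction of rca3. The kinase PPCK1 (GRMZM2G178074) was at -0.92 ± 0.09, opposite to PPCK4, and pep1 (GRMZM2G083841), the C4 phosphoenolpyruvate carboxylase, at -0.77 ± 0.13. rbcS (GRMZM2G098520), a copy of the rubisco small subunit, was at 0.71 ± 0.08, and CYPPDKZM2 (GRMZM2G097457) at 0.33 ± 0.09 (adjusted p = 0.0025, over 0.01 without cytTC221 replicate 1 or without TC243 replicate 3, where it was up to 0.011). C4ppdkZm1 (GRMZM2G306345), the pyruvate orthophosphate dikinase of the C4 cycle, was among the bright genes not called, at -0.02 ± 0.09 over its 5 probes and 0.52 with the Sp-named one.

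Jasmonate is the hormone of wounding and of several stresses, and of 41 genes of its synthesis and signalling 6 were higher and 14 lower, with a median of -0.14. With the arrays centred on the median gene the counts were 11 and 11, so the majority of lower genes depended on the scaling. Beside TIFY28 and opr2, the lipoxygenase lox3 (GRMZM2G109130) had -3.35, -3.23, -3.14 and -3.50 in heated cytTC221, against -2.02, -2.19, -2.25 and -2.11 in heated TC243 (-1.16 ± 0.08, adjusted p = 1.5e-11), while without heat it was 0.41 higher in cytTC221 (adjusted p = 0.00041). lox12 (GRMZM2G106748), another lipoxygenase, was at 0.49 ± 0.08 with all probes and at -0.007 with its 1 Sp-named probe, and TIFY21 (GRMZM2G058479), the brightest TIFY gene not called, at -0.04 ± 0.07.

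Pathogenesis and wound response genes were mostly lower. Of 16 tested 2 were higher and 9 lower (7 to 10 in all scalings), with a median of -0.43, and 5 of the list were called lower without heat. Beside mir2 and geb1, PAL1 (GRMZM2G074604), the entry enzyme of the phenylpropanoid pathway, had -2.50, -3.04, -2.21 and -2.55 in heated cytTC221, against -0.71, -1.18, -1.15 and -1.38 in heated TC243 (-1.47 ± 0.18, adjusted p = 3.8e-07). The maize proteinase inhibitor MPI (GRMZM2G028393), the brightest of the list, was at 5.16 to 5.43 in heated cytTC221 and 5.27 to 5.50 in heated TC243, with a difference of -0.08 ± 0.09 (adjusted p = 0.52). The chitinase chiA (GRMZM2G051943) was higher, at 0.56 ± 0.13 (adjusted p = 0.00087).

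Water channels and enzymes against reactive oxygen had mixed counts. Of 17 aquaporins 2 were higher and 3 lower in the main scaling, and 2 to 6 were higher and 3 to 4 lower over all scalings, with more higher than lower in 4 of them. The lower ones were PIP2-4, PIP1-5 and TIP4-2 (GRMZM2G108273), at -0.66 ± 0.12. The vacuolar TIP2-1 (GRMZM2G027098) had 1.92, 1.69, 2.07 and 1.83 in heated cytTC221, against 1.37, 1.12, 1.31 and 1.06 in heated TC243 (0.66 ± 0.20, adjusted p = 0.0083). Although its groups did not overlap, its call was kept only without TC243 replicate 1 or without cytTC221 replicate 2, with an adjusted p of up to 0.027 without any other heated array. PIP1-3 (GRMZM2G392975) was at 0.05 ± 0.07 with all probes, 0.34 with the Xhy-named and -0.54 with the Sp-named probes, so its probes disagree. Of 17 superoxide, peroxide and ascorbate enzymes 2 were higher and 4 lower in the main scaling, but 7 and 3 with median centring, 7 and 4 in the series matrix and 5 and 4 with the percentile over all spots. Among the lower ones were the catalase Cat0 (GRMZM2G090568) at -0.92 ± 0.10 and dhar2 (GRMZM2G005710) at -0.46 ± 0.06, beside dhar4. The methionine sulfoxide reductase MSRA4 (GRMZM2G052666) was at -0.02 ± 0.07. Of 20 glutathione transferases 4 were higher and 4 lower (4 to 7 and 4 to 5 in all scalings), with gst42 (GRMZM2G025190) at 1.12 ± 0.13, gst2 (GRMZM2G132093) at 0.50 ± 0.07 and gst20 (GRMZM2G056388) at -0.99 ± 0.10.

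Nuclear genes for mitochondrial proteins stood on the higher side. Of 21 tested 12 were higher and 2 lower, with a median of 0.43, and the counts were 12 to 15 higher and 2 lower in all scalings. Their summed signal lay between 4.52 and 4.68 on the heated cytTC221 arrays and between 4.11 and 4.27 on the heated TC243 arrays, with no overlap. Without heat 1 was higher and none lower, with a median of 0.11, and the change of the difference was called for 11. In heated cytTC248 against heated TC243, which shares the TC243 arrays, the median was 0.08.

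The alternative oxidase Aox (GRMZM2G125669), which passes electrons to oxygen past part of the respiratory chain, had 2.03, 2.24, 2.27 and 1.99 in heated cytTC221, against 1.25, 1.17, 1.15 and 1.33 in heated TC243 (0.91 ± 0.09, adjusted p = 1.7e-08). It was at -2.96 in unstressed cytTC221 and -3.11 in unstressed TC243, far below all heated arrays. The prohibitin phb2 (GRMZM2G107114), of the scaffold of the inner membrane, had 0.67, 1.02, 1.04 and 0.90 in heated cytTC221, against 0.13, -0.06, 0.04 and 0.09 in heated TC243 (0.86 ± 0.09, adjusted p = 1.9e-08). The manganese superoxide dismutase sod3 (GRMZM2G059991), which removes superoxide in the matrix, had 0.04, 0.31, 0.12 and 0.07 in heated cytTC221, against -0.59, -0.76, -0.88 and -0.61 in heated TC243 (0.84 ± 0.08, adjusted p = 7.7e-09). These 3 changed between the states, by 0.76, 0.73 and 0.73, and none of them was called between heated cytTC248 and heated TC243.

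The other 9 higher members were the prohibitin phb3 (0.74), the ADP/ATP carriers ANT-G2 (0.66) and ANT-G1 (0.43), the outer membrane channels vdac2 (0.65), vdac1a (0.58) and vdac1b (0.46), pdh2 of the pyruvate dehydrogenase complex (0.65), aox3 (0.48) and the chaperonin CPN60I of GRMZM2G111477 (0.37). Called lower were the protease lon1 (GRMZM2G109560), at -0.45 ± 0.07, and the porin por1 (GRMZM2G155021), at -0.55 ± 0.09. CPN60II (GRMZM2G416120), the brightest of the list, had 2.26, 2.26, 2.38 and 2.11 in heated cytTC221 and 2.34, 2.12, 2.15 and 2.24 in heated TC243, with no call (adjusted p = 0.82).

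Genes of the mitochondrial genome, which cytTC221 has from TC221, gave few calls. Of 17 tested 1 was higher and 3 lower, with a median of -0.15. NAD5 (GRMZM5G834128), a subunit of complex I, was at 0.35 ± 0.09 (adjusted p = 0.0019) and was not called when the scanner's processed signal was used. RPS7 (GRMZM5G890451), a protein of the mitochondrial ribosome, had 2.56, 2.44, 2.71 and 2.48 in heated cytTC221, against 3.11, 3.20, 3.29 and 2.73 in heated TC243 (-0.53 ± 0.12, adjusted p = 0.00055). The open reading frames ORF275 (GRMZM5G833299) and ORF99-D (GRMZM5G845024) were at -0.60 ± 0.12 and -0.47 ± 0.10. Over the scalings 0 to 2 of the 17 were higher and 1 to 3 lower. NAD3 (GRMZM5G876913), another subunit of complex I, was bright and not called, at -0.02 ± 0.11. How labelling captured organelle transcripts, many of which lack a stable poly(A) tail, is not given in the sources used here.

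**Figure D4:**
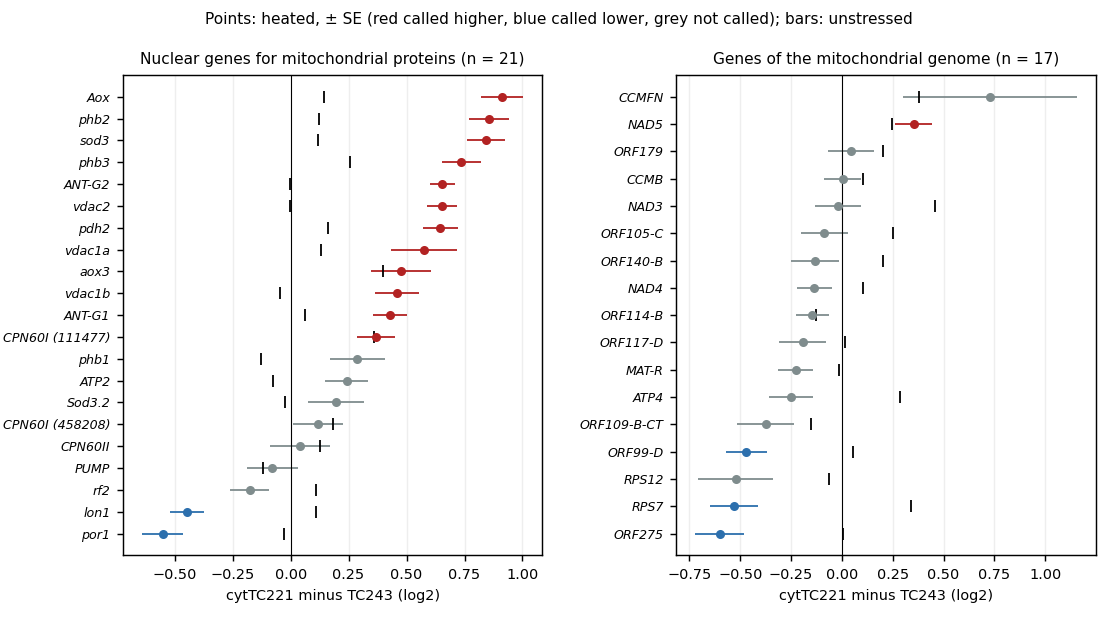
Difference cytTC221 minus TC243 on the log2 scale for 21 nuclear genes for mitochondrial proteins (left) and 17 genes of the mitochondrial genome (right). Points with bars are the heated difference ± SE (red called higher, blue called lower, grey not called) and black ticks are the unstressed difference. In the nuclear list 12 genes are called higher and 2 lower, in the mitochondrial genome 1 and 3, and CCMFN, at 0.73, has the widest error.

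All 6 TCP transcription factors tested, regulators of growth and leaf shape, were higher, in every scaling, with a median of 0.74. TCP30 (GRMZM2G166946) had -0.15, -0.50, -0.31 and -0.16 in heated cytTC221, against -1.20, -1.18, -1.32 and -1.03 in heated TC243 (0.90 ± 0.15, adjusted p = 3.2e-05). It was at 3.24 in unstressed cytTC221 and 3.43 in unstressed TC243, far above all heated arrays. TCP4 (GRMZM2G445944) was at 0.82 ± 0.10 and TCP20 (GRMZM2G034638) at 0.76 ± 0.10, the last also higher without heat (0.60, adjusted p = 9.6e-05). The change of the difference was called for 3 of the 6. Of 9 growth-regulating factors, which promote leaf growth, 4 were higher (4 to 6 in all scalings) and none lower, with GRF1 (GRMZM2G034876) at 0.70 ± 0.09 and GRF2 (GRMZM2G099862) at 0.69 ± 0.07.

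Of 33 ribosomal protein genes 13 were higher and 5 lower (13 to 21 and 3 to 6 in all scalings), with a median of 0.18. The acidic protein gene rpp2a-4 (GRMZM2G075630) had 1.28, 1.48, 1.59 and 1.31 in heated cytTC221, against 0.41, 0.18, 0.39 and 0.36 in heated TC243 (1.08 ± 0.09, adjusted p = 8.2e-10), and RPS21 (GRMZM2G134109) was at 0.65 ± 0.07. RPL10 (GRMZM2G088005), at -1.42 ± 0.09, was on the other side. Of 20 SR proteins, which guide splicing, 8 were higher and 3 lower (8 to 12 and 1 to 3 in all scalings), with a median of 0.14. RSZ20 (GRMZM2G080930) was at 0.87 ± 0.07, and RSZ28 (GRMZM2G027105), at 0.86 ± 0.06, and SR45_1 (GRMZM2G060540), at 0.72 ± 0.10, were also higher without heat, by 0.66 and 0.60. Of 17 genes of nucleosome assembly and histone deacetylation 8 were higher and 1 lower, with a median of 0.21. The nucleosome assembly factor nfa102 (GRMZM2G121186) had 3.27, 3.55, 3.46 and 3.21 in heated cytTC221, against 2.75, 2.54, 2.48 and 2.51 in heated TC243 (0.80 ± 0.09, adjusted p = 7.3e-08), with nfa101 (GRMZM2G140051) at 0.55 ± 0.07 and the deacetylase HD2b (GRMZM2G100146) at 0.57 ± 0.07.

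NAC transcription factors, many of which act in stress and ageing, were lower for 9 and higher for 4 of 18, with a median of -0.39. NAC20 (GRMZM2G180328), among the brightest, had 3.18, 3.23, 3.34 and 3.13 in heated cytTC221, against 4.22, 4.07, 4.14 and 4.22 in heated TC243 (-0.94 ± 0.07, adjusted p = 9.5e-11), and heated cytTC248 minus heated TC243 was -0.88 (adjusted p = 3.6e-09). The gene IDs GRMZM2G336533 and GRMZM2G018553, both named NAC1, were at -1.22 ± 0.10 and -1.1 ± 0.09. Of 16 WRKY factors 7 were higher and 5 lower (7 to 9 and 2 to 5 in all scalings), with WRKY104 (GRMZM2G169149) at 0.95 ± 0.09 and WRKY45 (GRMZM2G151444) at -1.25 ± 0.09. Of 31 bZIP factors 6 were higher and 5 lower in the main scaling, and 9 to 11 were higher and 2 to 4 lower in the other scalings, with lip15 (GRMZM2G448607) at 0.72 ± 0.08.

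Abscisic acid, the hormone of water shortage, and cytokinin, a hormone of growth, gave counts in both directions. Of 40 abscisic acid and dehydrin genes 11 were higher and 8 lower (11 to 17 and 4 to 8 in all scalings), with a median of 0.005. The phosphatase PP2C12 (GRMZM5G818101) was at -1.26 ± 0.08, the dehydrin gene dehydrin3 (GRMZM2G373522), whose protein protects drying cells, at -1.05 ± 0.06, the phosphatase PP2C7 (GRMZM2G383807) at 0.96 ± 0.16 and PYL7 (GRMZM2G144224), of the abscisic acid receptors, at 0.70 ± 0.10. Of 24 cytokinin genes 6 were higher and 8 lower in the main scaling, but 10 and 4 with median centring, and 8 and 6 with quantile normalization, with the percentile over all spots and in the series matrix. The cytokinin oxidase cko3 (GRMZM2G167220), which breaks the hormone down, was at 1.11 ± 0.11 and the response regulator RR6 (GRMZM2G129954) at -1 ± 0.09. Of 12 autophagy genes, which serve the recycling of cell contents, 3 were higher and 5 lower, with atg5 (GRMZM2G098420) at 0.55 ± 0.07, Atg7 (GRMZM2G005304) at -0.56 ± 0.07 and Atg8d (GRMZM2G134613) at -0.53 ± 0.08.

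Of 31 genes of cellulose synthesis and wall loosening 5 were higher and 9 lower, with a median of -0.21, and with median centring 6 were higher and 6 lower. The cellulose synthases CesA13 (GRMZM2G002523) and CesA12 (GRMZM2G142898) were at 0.83 ± 0.12 and 0.76 ± 0.10, while the expansin expA4 (GRMZM2G445169), which loosens walls, had 0.36, 0.45, 0.47 and 0.36 in heated cytTC221, against 1.35, 1.27, 1.33 and 1.22 in heated TC243 (-0.88 ± 0.07, adjusted p = 2.0e-10). Cel24A (GRMZM2G482256) was at -1.10 ± 0.08.

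Markers of cell types were read from lists of their own, since fewer cells of a type and less RNA per cell cannot be told apart in whole leaves and stems. Of 13 mesophyll and bundle sheath markers 2 were higher and 5 lower, with a median of 0.02 and a summed signal of 3.99 to 4.18 in heated cytTC221 and 3.94 to 4.26 in heated TC243. Leaf markers were thus present in both lines, with overlapping sums. Of 12 vascular and lignifying markers 2 were higher, 1 lower (2 to 4 and 0 to 2 in all scalings) and 9 not called, with a median of 0. Their sums were 2.84 to 3.19 in heated cytTC221 and 3.20 to 3.49 in heated TC243, which all but met. The sums of the lists were taken in the main scaling alone. Of 8 dividing cell markers 1 was higher and 2 lower, with sums of 1.41 to 1.5 in heated cytTC221 and 1.63 to 1.77 in heated TC243. The lower ones were led by cyclin4 (GRMZM2G310115), with -2.93, -2.81, -2.64 and -3.05 in heated cytTC221, against -0.63, -0.59, -0.60 and -0.60 in heated TC243 (-2.25 ± 0.09, adjusted p = 1.8e-15). Of 8 meristem, 5 root and 28 seed markers on the array only 2 each passed the filter on dim probes. The summed signal of the 2 meristem markers, both higher, was -1.47 to -1.20 in heated cytTC221 and -1.68 to -1.56 in heated TC243. The sums of the root markers were -0.54 to -0.24 in heated cytTC221 and -0.16 to 0.39 in heated TC243, and those of the seed markers were 0.12 to 0.56 in heated cytTC221 and 0.94 to 1.03 in heated TC243, with 1 of each pair called lower. The part of any cell type in the results above was not tested.

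Some genes were detected in a single heated line. On all 4 heated cytTC221 arrays and on no heated TC243 array were 359 genes, of which 218 were called, and the reverse held for 1763 genes, of which 1687 were called. By the scanner's flag for positive and significant spots the counts were 95 and 199 genes. For the 359 and 1763 genes a lower bound of the fold can be given, from the mean of the bright group and, for each array of the dim group, the lowest signal still well above background on that array, or the gene's own where that was higher. The bound was over 2-fold for 53 and 270 genes. Without heat 48 of the 359 and 30 of the 1763 were split between the lines in this way as well. Of the genes detected in TC243 alone, 502 were detected on all 4 heated cytTC248 arrays, and of those detected in cytTC221 alone 37 were.

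GRMZM2G138809 was at -4.81, -4.43, -4.46 and -4.79 in heated cytTC221, against 0.68, 1.1, 1.03 and 0.92 in heated TC243, which is at least 40.8-fold lower in heated cytTC221 (adjusted p = 3.6e-21). It was near background in unstressed cytTC221 too, at -4.90 against -0.71 in unstressed TC243, and in heated cytTC248 it was at 0.92. GRMZM2G519532 was at least 13.9-fold, GRMZM2G150209 at least 7.81-fold, GRMZM2G174192 at least 7.65-fold and AC233855.1_FGT006 at least 7.46-fold lower. Of these 5, GRMZM2G174192 alone was not called without heat (0.02, adjusted p = 0.96), at -4.81 in unstressed cytTC221 and -4.83 in unstressed TC243, and it was at -2.47 in heated cytTC248.

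In the other direction GRMZM2G342226 was at -0.01, -0.14, 0.00 and -0.02 in heated cytTC221, against -4.64, -4.72, -4.54 and -4.20 in heated TC243, at least 18.3-fold higher (adjusted p = 5.8e-18), and it was at 0.34 in unstressed cytTC221 and -4.83 in unstressed TC243. GRMZM5G841920 was at least 17.7-fold, GRMZM2G078492 at least 11-fold, GRMZM2G169012 at least 8.23-fold and GRMZM2G020556 at least 7.63-fold higher. All 5 were also higher in unstressed cytTC221, by 1.92 to 5.17. In heated cytTC248 against heated TC243 the difference was 2.76 for GRMZM2G020556 and between -0.02 and 0.14 for the other 4.

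**Figure D5:**
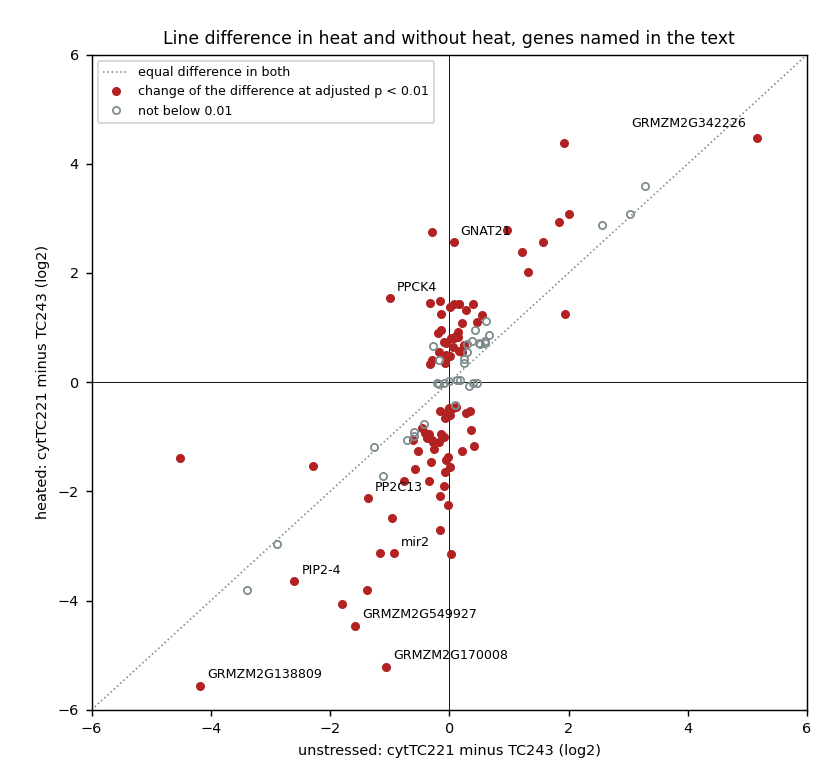
Difference cytTC221 minus TC243 without heat (x axis) and in heat (y axis), both on the log2 scale, for 131 genes with values in the text. Filled points are the 96 genes whose difference changed between the states at an adjusted p below 0.01, open points the other 35, and the dotted line marks equal differences. Of all tested genes 29.8% changed, and many of those shown were chosen by their heated difference. GNAT21 and most other named genes lie near 0 on the x axis, while GRMZM2G138809, PIP2-4 and GRMZM2G342226 were far from 0 in both states.

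Genes with a difference over 1 in both states were looked up in the order of genes along the chromosomes. Of 13811 tested genes that RefSeq places in order on an assembly of the maize line B73, 36 were called over 1 apart in the same direction both in heat and without, 18 higher and 18 lower, and 21 of them (58.3%) stood in 5 runs of at least 3 genes with neighbours at most 30 places apart. Of the other 13775 ordered genes 9.69% lay as near to one of the 36. The 508 genes over 1 apart in heat that were not of this kind had one of their own as near for 444 (87.4%), against 88.9% of the remaining 13303 genes. This rule, and the genes named from the runs, were chosen after their values were seen, and no coordinates are given because the array follows an older annotation. The largest run held 8 genes within 100. In it stood PIP2-4 and GRMZM2G170008, which averaged -1.15 in heated cytTC221 and 4.06 in heated TC243 (-5.21 ± 0.06, adjusted p = 3.9e-25), with -1.06 without heat, and GRMZM2G097015, at least 5.50-fold higher. Their differences between heated cytTC248 and heated TC243 were -3.50, -4.54 and 2.47, in the direction of cytTC221 for all 3.

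Another run of 4 genes within 19 held GRMZM2G150209, GRMZM2G304372, at least 2.22-fold lower, and GRMZM2G145583, at 2.01 ± 0.09, with cytTC248 differences of -0.02, 0.06 and -0.04. A run of 3 within 14 held GRMZM2G138809, GRMZM2G142157 at -1.53 ± 0.09 and orp1 (GRMZM2G169593), a tryptophan synthase subunit, at -1.19 ± 0.07, with cytTC248 differences of -0.02, 0.16 and -0.22. In a run of 3 within 4 were GRMZM2G131591 at 2.94 ± 0.10, GRMZM2G135866 at 2.58 ± 0.09 and GRMZM5G822098, not well above background on any heated TC243 array, all with cytTC248 differences of at most 0.23. The last run, 3 within 47, held GRMZM2G337330 at -3.80 ± 0.08, GRMZM2G060940 at -1.71 ± 0.13 and GRMZM2G387360 at 2.38 ± 0.07, with -0.41, -0.62 and 0.85 in cytTC248.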

How the data were processed

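Total RNA of leaves and stems was labelled in 1 colour and hybridised to 24 Agilent maize arrays, 1 per sample. The deposited scanner files hold a median foreground and background intensity per spot, written by Feature Extraction 11.5.1.1 as named in the submitters' processing notes, and the flags for outliers and for spots well above background. The deposited series matrix holds log2 values whose normalization is not stated in the file. It was used as an alternative.

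Background was corrected with normexp (offset 50), and log2 signals were set against each array's 75th percentile over the 46955 spots that all 24 arrays showed well above background. Control spots and outlier flags (0 to 0.0256% of spots) were left out, and no spot was saturated. A probe was kept where every array of some group showed it well above background (64523 of 133671), and the kept probes of a gene were averaged, which gave 48264 of 107027 gene IDs. limma 3.58.1 in R 4.3.3 was fitted to all 24 arrays with Benjamini-Hochberg adjustment over all genes. The number of arrays limits the precision. On simulated data with these groups, independent noise and few changed genes, 49 of 50 genes changed by 2 on the log2 scale were recovered, 44 by 1, 26 by 0.5 and 1 by 0.25, with 1 false call among 48264 genes. In the data 42.7% of the genes were called, so recovery and false calls may differ from the simulated ones.

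Names come from RefSeq, in which 14233 IDs had a match and 1870 a name. 422 IDs with several RefSeq genes were left unnamed. The genes named are the 12 highest and 12 lowest with a name among those called, well above background on all 8 heated arrays, without overlap and with all probes of 1 sign, up to 3 called genes per direction and up to 2 bright uncalled genes per list, the 5 highest bounds per line and 2 unmatched IDs per direction. Not all of them are printed, and 1 item is not reported here. The rule had asked for a product description, which the reference table does not hold, and a gene name was used. The comparison and the gene lists were chosen with earlier results of these data known. All value columns belong to samples of the series. Alternatives were other scalings, signals, filters and offsets, the slide, position or replicate number as a term, and leaving out each heated array. Figures were drawn with matplotlib 3.10.9 in Python 3.11.15.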

Additional observations from a re-analysis of the deposited data

Results flagged for a closer look

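Among the 2 heated groups of 131 genes with values in the text, 262 groups of 4 arrays in all, 13 held an array whose gap to its nearest neighbour, as a share of the whole range of the group, was above Dixon's critical value for 4 samples. 6 of these were heated cytTC221 groups and 7 heated TC243 groups, and chance puts about 1 in 20 groups above that value. In heated cytTC221 the share was 0.938 for PIP1-5 and 0.917 for GRMZM2G169012 in replicate 3, 0.91 for GRMZM2G097015, 0.893 for GRMZM2G060940 and 0.857 for MSRA4 in replicate 1, and 0.86 for GRMZM2G342226 in replicate 2. In heated TC243 it was 0.907 for dehydrin3, 0.841 for hsp22 and 0.83 for CesA13 in replicate 1, and 0.887 for dhar4, 0.873 for cko3, 0.867 for RSZ20 and 0.841 for NAD5 in replicate 4. None of the 8 groups of array measures held such an array.

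The line difference in heat minus the line difference without heat passed the limma test for 96 of the 131 genes, 45 above 0 and 51 below, and for 35 it did not. Of all tested genes 29.8% passed it. Many of the 131 were chosen by their heated difference, which is part of this change, so a higher share follows from the choice. All values that follow are this change on the log2 scale. The highest were 3.13 for GRMZM2G304372, 3.03 for GRMZM2G526578, 2.54 for PPCK4, 2.5 for GNAT21, 2.47 for GRMZM5G841920, 1.82 for GRMZM2G044908, 1.76 for ACO20, 1.64 for DML3, 1.39 for bZIP84, 1.35 for PSA2, 1.34 for glu2 and 1.28 for D14a. Next in size were 1.27 for HMGR, 1.16 for GRMZM2G387360, 1.1 for WRKY104, 1.1 for GRMZM2G131591, 1.09 for TCP30, 1.06 for GRMZM2G169012, 1.04 for MTD1, 1.04 for HB128, 1 for GRMZM2G135866, 0.87 for rpp2a-4, 0.81 for hsfb and 0.77 for nfa102. Lower values above 0 were 0.76 for rbcS, 0.76 for GRMZM2G142157, 0.76 for Aox, 0.75 for TCP4, 0.74 for RSZ20, 0.73 for sod3, 0.73 for phb2, 0.73 for chiA, 0.7 for CHL-CPN10, 0.69 for GRMZM2G145583, 0.69 for CesA13 and 0.68 for WRKY29. The smallest above 0 were 0.66 for CYPPDKZM2, 0.65 for cko3, 0.59 for RPS21, 0.55 for gst2, 0.48 for lox12, 0.44 for GRF2, 0.43 for Hsf12, 0.4 for HD2b and 0.34 for nfa101. The lowest were -4.15 for GRMZM2G170008, -3.17 for GRMZM2G174192, -2.88 for GRMZM2G549927, -2.55 for ysl11, -2.42 for GRMZM2G337330, -2.26 for GRMZM2G700353, -2.24 for cyclin4, -2.2 for mir2, -1.95 for GRMZM2G150209, -1.91 for TIFY28 and -1.81 for MGL3. Next below 0 were -1.58 for opr2, -1.57 for lox3, -1.55 for aprl2, -1.53 for geb1, -1.47 for PIP1-5, -1.46 for PP2C12, -1.37 for GRMZM2G138809, -1.36 for RPL10, -1.35 for Hsf26, -1.25 for expA4 and -1.17 for PAL1. Values nearer to 0 were -1.05 for dhar4, -1.04 for PIP2-4, -1.01 for rca3, -0.97 for NAC1 of GRMZM2G336533, -0.92 for NAC1 of GRMZM2G018553, -0.91 for RR6, -0.87 for RPS7, -0.85 for Atg7, -0.83 for Cel24A and -0.8 for hsp18f. Nearer still were -0.76 for CP24, -0.75 for PP2C13, -0.73 for WRKY45, -0.7 for GRMZM5G822098, -0.69 for GRMZM2G342226, -0.66 for RA, -0.61 for ORF275, -0.6 for NAC20, -0.6 for TIP4-2, -0.59 for hsp1 and -0.56 for lon1. The values below 0 closest to it were -0.55 for hsp101, -0.53 for ORF99-D, -0.52 for Cat0, -0.52 for por1, -0.46 for dhar2, -0.44 for dehydrin3, -0.38 for L-FNRII and -0.37 for Atg8d. For PPCK4, lox3, CHL-CPN10, CYPPDKZM2, Atg7 and expA4 the called line differences had opposite directions in the 2 states.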

How the results depend on the processing

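Scaling set the number of higher genes, which was 10651 with quantile normalization, 11048 with the percentile over all spots, 13586 with median centring and 12201 in the series matrix, against 7079. Lower genes were 8866 with median centring, where differences over 1 were 1827 higher and 2237 lower. The change between states was upward at 8282 and downward at 9986 genes with quantile normalization, and upward at 8814 and downward at 7679 with the percentile over all spots, against 4976 and 9427. The processed signal gave 11086 differences over 1 (3165 higher, 7921 lower) and an offset of 10 gave 7395 (1637 higher, 5758 lower). With probes well above background on all 24 arrays, which leaves 27876 genes, 13217 were called, 7124 of them lower, and 2229 differed by over 1, 1440 of them lower. The genes detected in 1 heated line were 95 for cytTC221 and 199 for TC243 by the scanner's positive and significant flag.

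Settings chosen after seeing the data were the 2 probe series and the 2 array positions. Sp-named probes alone, on 15579 genes, gave 6062 calls, 3247 higher and 2815 lower, with 804 over 1, 405 higher and 399 lower. Xhy-named probes alone gave 4421 higher genes, and position 4 alone 8905 lower ones. Of 3651 single-gene values, 4 turned their direction with a call in the main setting or in the alternative one. All were with Sp-named probes: Hsf12 (-0.038, adjusted p = 0.85 in limma), C4ppdkZm1 (0.52), lox12 (-0.007) and PIP1-3 (-0.54). Turns of genes called in neither setting were not counted. The cause was not tested.

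Leaving out 1 heated array gave 18817 to 20209 calls, 6348 to 7294 higher and 11823 to 13735 lower, and 4155 to 4618 over 1, 925 to 1068 higher and 3134 to 3613 lower. The change between states was called at 13415 to 14384 genes, 4449 to 5365 upward and 8400 to 9804 downward. Genes detected in 1 line numbered 359 to 456 for cytTC221 and 1777 to 2283 for TC243. Of 121 named genes called, 118 were called in all these fits. Many of these genes were chosen by their heated difference, and each fit shares most of its arrays with the main one, so this count follows largely from the choice. The replicate block gave 6907 higher and 13198 lower genes and lost the call of hsp70-4 (GRMZM2G340251), with an adjusted p of 0.0112 in limma. The deviations of same-numbered arrays correlated at r of -0.333 to -0.122. Replicate 2 of both heated lines was on slide 3 and replicate 3 of both on slide 6, so number and slide go together there. Mean signals were not run, since the files used hold medians. Depth is limited by signal over background, 3.25 in both heated groups.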
